A study of Mus musculus with 46 samples.

Results

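Microglia are the resident macrophages of the brain. They need signalling through the CSF1 receptor to survive, and PLX3397 is an inhibitor of that receptor that is given in chow and removes most of them. When the inhibitor is withdrawn, microglia fill the brain again, and after a short treatment the new cells arise throughout the tissue, which is called GLOBAL repopulation. Microglia in the healthy brain carry a homeostatic signature of surface receptors and secreted proteins (P2ry12, Tmem119, Cx3cr1), and lose part of it, with gain of genes such as Axl and Clec7a, in disease.

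GLOBAL repopulated microglia are compared here with control microglia, chosen by the titles of the libraries. The comparison holds 7 of the 46 libraries of the series. The mice were C57BL/6 wild-type, and were 2 months old at the start. Mice of the GLOBAL group (3 libraries) received PLX3397 chow over 7 days and recovered without it over 28 days, and control mice (4 libraries) had vehicle and belong to the same time point. The labels give the sample as myeloid cells of whole hemispheres, and the study gives a sort for CD11b+CD45int cells. The extraction protocol in the same labels instead describes frozen tissue dissected from brain regions, so the source of the RNA is not stated uniformly. RNA-seq values are FPKM, read counts scaled to gene length and to library depth. The closest experiment in the series is that of white matter (WM) repopulating cells, for which the same strain was treated for 14 days and left for 28 days; of that experiment, the 4 libraries of WM repopulating cells and the 3 of control microglia taken without LPS (0 hr) are used below for comparison. It is a separate table with its own control mice. The labels do not say whether libraries are single mice, so p-values measure the spread between these libraries.

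Depth differed between the groups. The GLOBAL libraries held between 5376636 and 6387797 reads in genes, and the control libraries between 2385713 and 5443355. A marker gene of microglia was high in all 7 libraries: Cx3cr1, the fractalkine receptor, lay between 1749 and 2020 FPKM. Rbfox3, a marker of neurons, lay between 0.725 and 1.34 FPKM, and Aldh1l1, a marker of astrocytes, between 0.359 and 1.97 FPKM. The summed astrocyte list was 357 to 395 FPKM in GLOBAL and 271 to 331 FPKM in control, nearly all of it Glul, a glutamine synthetase that microglia also express. S100a8, a calcium-binding protein of neutrophil granules, was at 10782 and 6887 FPKM in control libraries 1 and 2, at 1227 and 866 FPKM in control libraries 3 and 4, and at 2124, 1294 and 630 FPKM in the GLOBAL libraries. Control library 4 stood apart in another way, with a summed level of 63799 FPKM over the homeostatic genes where the other controls had between 43682 and 45312 FPKM. For several gene lists the counts without some of these libraries are given, though not every count that moved. In sorted cells analysed in bulk, fewer cells of a type and less RNA per cell cannot be told apart.

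Across the whole profile, GLOBAL repopulated microglia lay close to control. The design asks how completely the profile of microglia returned by 28 days, and the group means of the 16651 genes tested correlated with a Pearson r of 0.985 across genes, which are not independent replicates. Pairs of control libraries correlated with r between 0.950 and 0.960, pairs from different groups between 0.948 and 0.967, and pairs of GLOBAL libraries between 0.968 and 0.973. Pairs that cross the groups therefore overlapped with pairs of controls. The mean Euclidean distance on log2(FPKM + 1) was 68.5 between groups and 66.0 within groups, and this difference of 2.54 gave p = 0.114 over the 35 possible assignments of libraries (exact permutation test, one-sided, where the smallest p possible is 0.0286). Without GLOBAL library 3 the difference turned to -1.63, and without control library 4 it was 7.497.

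No gene passed the main test for a difference, limma over genes of all types. Limma on log2(FPKM + 1) found 0 DEGs (0% of 16651 genes) at an adjusted p under 0.05, and the smallest adjusted p was 0.0776. At an unadjusted p under 0.05 there were 1504 genes, 9.03% of those tested, of which 727 were higher in GLOBAL (4.37% of all tested) and 777 lower (4.67%). This count was 882 without GLOBAL library 3 and 2344 without control library 4. The second tool run, limma-voom on the whole reads recovered from the FPKM steps, called 26 genes (0.156% of those tested), 15 higher and 11 lower. In each of the 26 the GLOBAL and control libraries did not overlap in FPKM, as was so for 9.96% of all genes tested. A small p on the same libraries makes this likely, so it is no added support. Limma-voom was added after the first result had been seen. With protein coding and lncRNA genes only, the gene filter of the study's methods, limma called 7 genes, and with weights for libraries 1. The count of 0 therefore depends on the tool, the gene filter and the weights, and genes below the threshold are described by their values.

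Intervals say how large a difference could have been missed. The 95% interval of the log2 fold change on log2(FPKM + 1) lay within -1 and 1 for 13774 genes (82.7%), and the median half-width of the interval was 0.49. This scale understates the change of low genes, and the count was 9672 with a pseudocount of 0.1 and 9869 in limma-voom. Among the 8701 genes with a mean of at least 5 FPKM, 91.6% had such an interval. The estimates themselves ran from -0.59 at the 5% quantile to 0.43 at the 95% quantile. Low genes leaned down and high genes leaned up: of the genes under 2 FPKM, 32 were higher and 321 lower at an unadjusted p under 0.05, and of the genes over 100 FPKM, 63 were higher and 9 lower. After the reads of every library had been thinned to the smallest, the counts were 32 and 319 for the low genes and 64 and 6 for the high genes.

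**Figure D1:**
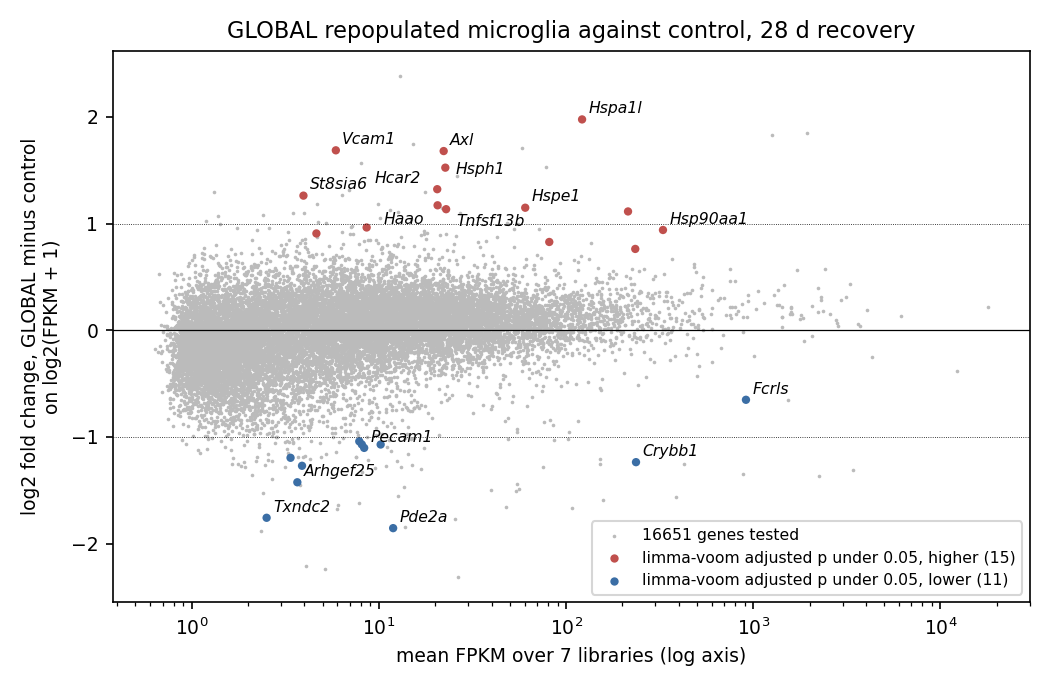
Each point is 1 of the 16651 genes tested, with its mean FPKM over the 7 libraries on a log axis and its log2 fold change (GLOBAL minus control) on log2(FPKM + 1). Most points lie between the dotted lines at -1 and 1, and the coloured points are the 26 genes called by limma-voom, of which 15 were higher and 11 lower.

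Most homeostatic genes lay near control. Of the 34 homeostatic microglia genes tested, 27 had a higher estimate in GLOBAL and 7 a lower one (51.1% of all genes tested were higher by sign), with a median log2 fold change of 0.12. The median was 0.01 over all genes, 0.09 over those between 20 and 100 FPKM and 0.14 over those above 100 FPKM, the level of most homeostatic genes. At an unadjusted p under 0.05, 1 was higher and 2 lower, and for 33 of the 34 the 95% interval lay within -1 and 1. By overlap of the libraries, 6 lay above all controls (among them Cx3cr1, Siglech and Olfml3) and 2 below all, against 5.83% and 4.14% of all genes. P2ry12, the ADP receptor that guides microglial processes to injury, was at 873, 901, 1021 and 1074 FPKM in the control libraries and at 1088, 1062 and 1181 FPKM in the GLOBAL libraries. These values overlapped, and the log2 fold change was 0.20 with a 95% interval from -0.12 to 0.52. Tmem119, a membrane protein specific to microglia in the brain, was at 1802, 1944, 1725 and 3063 FPKM in control and at 2393, 2350 and 2255 FPKM in GLOBAL. Control library 4 had the highest value and the other 3 controls the lowest, and the interval ran from -0.30 to 0.64. Sall1, the transcription factor that keeps microglial identity, had means of 182 ± 25.6 FPKM (SD, n = 4) in control and 194 ± 12.9 FPKM (SD, n = 3) in GLOBAL, with an interval from -0.21 to 0.41. For Csf1r, which encodes the receptor that PLX3397 blocks, control libraries lay between 2461 and 2859 FPKM and GLOBAL libraries between 2723 and 3022 FPKM, with an interval from -0.24 to 0.45. Without control library 4, 8 homeostatic genes were higher at an unadjusted p under 0.05, as were 1281 of all 16330 genes tested. The median of the list was then 0.22. Without control libraries 1 and 2 there were 0 higher and 3 lower, with a median of 0.04.

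Crybb1 and Fcrls were the homeostatic genes that lay below control. Crybb1, a crystallin that microglia express, was at 292, 256, 235 and 482 FPKM in control libraries and at 143, 102 and 144 FPKM in GLOBAL libraries. All GLOBAL libraries lay below all controls, and the mean in GLOBAL was 0.41 of that in control (log2 fold change -1.24 ± 0.24 SE, limma adjusted p = 0.163, limma-voom adjusted p = 0.0267). Fcrls, an Fc receptor-like scavenger receptor that marks microglia, was at 1028, 965, 1119 and 1216 FPKM in control and at 762, 588 and 721 FPKM in GLOBAL. Its groups did not overlap either, with a log2 fold change of -0.65 ± 0.15 SE (limma adjusted p = 0.275, limma-voom adjusted p = 0.0418). Ltc4s, which makes leukotriene C4, was the homeostatic gene above control at an unadjusted p under 0.05, with 467 ± 64.4 FPKM (SD, n = 4) in control and 622 ± 26.6 FPKM (SD, n = 3) in GLOBAL.

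The 20 lineage transcription factors had 15 higher estimates and 5 lower, and a median log2 fold change of 0.10, near that of all genes at these levels. At an unadjusted p under 0.05, 1 was higher, against 4.37% of all genes. This count became 5 without control library 4, where 1281 of all 16330 genes were higher, and 0 without control libraries 1 and 2. The gene called with all libraries, Cebpa, a factor of the myeloid lineage, was at 186, 148, 126 and 305 FPKM in control and at 274, 251 and 285 FPKM in GLOBAL, and the groups overlapped through control library 4. Spi1, the master factor of myeloid cells, lay between 279 and 554 FPKM in control and between 323 and 348 FPKM in GLOBAL.

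**Figure D2:**
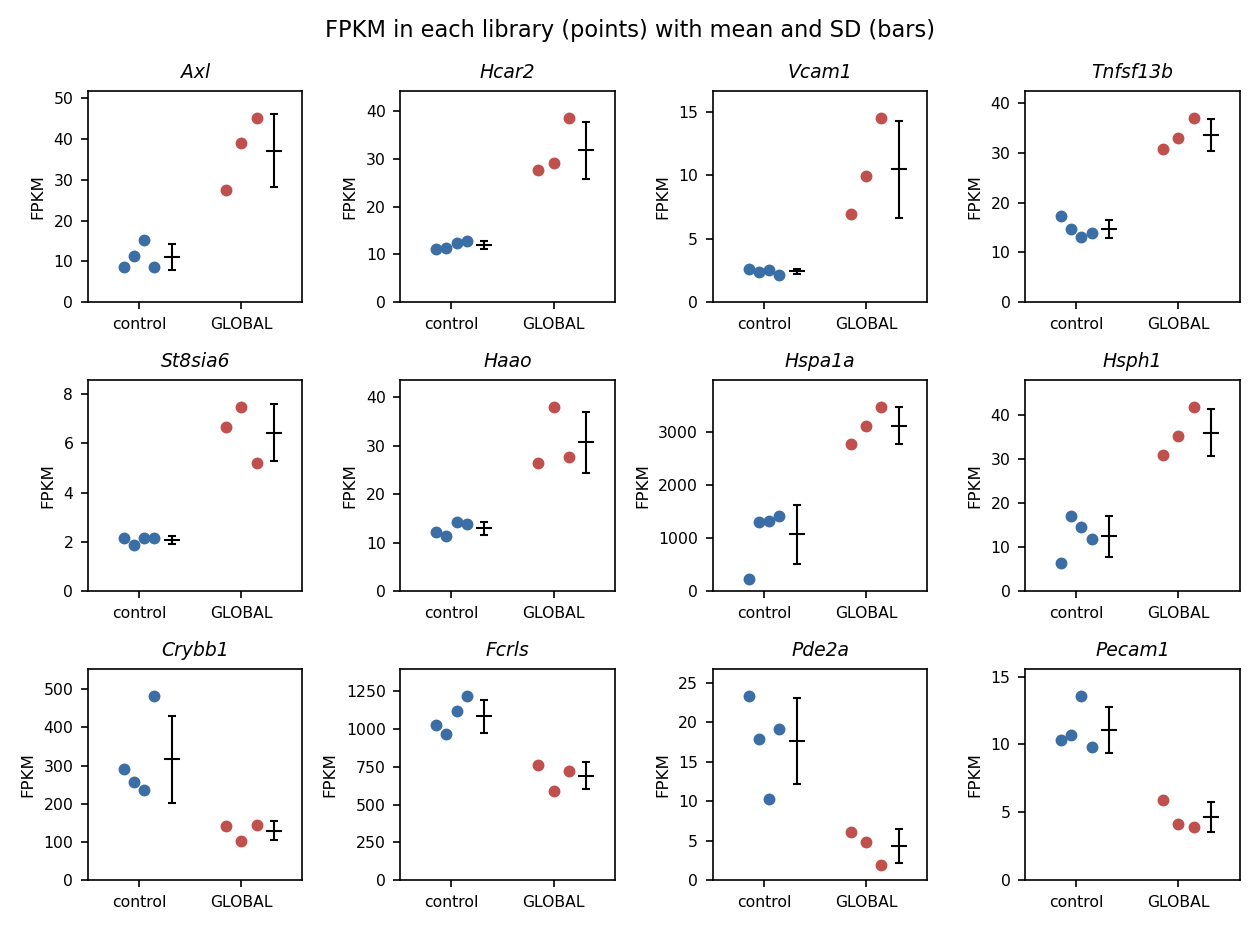
FPKM of 12 genes in each control (blue, 4 libraries) and GLOBAL (red, 3 libraries) library, with the mean and SD of each group as bars beside the points. In all 12 genes the groups do not overlap, by which most of them were chosen. Axl, Hcar2, Vcam1, Tnfsf13b, St8sia6, Haao, Hspa1a and Hsph1 lie above control and Crybb1, Fcrls, Pde2a and Pecam1 below.

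Genes with a small p among those above control are given next, and others, such as Scimp and the chaperones, further below. Axl, a TAM receptor with which phagocytes take up dying cells and which rises in activated microglia, was at 8.52, 11.3, 15.3 and 8.67 FPKM in the control libraries and at 27.4, 38.9 and 45.1 FPKM in the GLOBAL libraries. The lowest GLOBAL library was above the highest control. The log2 fold change was 1.68 ± 0.23 SE, a ratio of means of 3.39 (limma adjusted p = 0.0776, limma-voom adjusted p = 0.00184). Axl lies on chromosome 7 at 25756500 to 25788924 (GRCm38). The other TAM receptor of microglia, Mertk, had values between 113 and 131 FPKM in control and between 121 and 136 FPKM in GLOBAL, and their ligand Gas6 had an estimate of -0.32.

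Hcar2, the receptor for beta-hydroxybutyrate and niacin, was at 11.2, 11.4, 12.5 and 12.9 FPKM in control and at 27.7, 29.2 and 38.6 FPKM in GLOBAL. Its control libraries hardly varied, and its unadjusted p of 4.88e-06 was the smallest of the table (log2 fold change 1.32 ± 0.16 SE, limma adjusted p = 0.0776, limma-voom adjusted p = 0.00578). Vcam1, an adhesion molecule that binds the integrin of leukocytes, was at 2.60, 2.40, 2.57 and 2.18 FPKM in control and at 6.95, 9.97 and 14.5 FPKM in GLOBAL. These are low levels, and the log2 fold change of 1.69 ± 0.23 SE understates the ratio of means of 4.30. Tnfsf13b, which encodes the B cell survival factor BAFF, had 14.8 ± 1.81 FPKM (SD, n = 4) in control and 33.6 ± 3.13 FPKM (SD, n = 3) in GLOBAL. Haao, an enzyme that makes quinolinic acid from tryptophan, had 12.96 ± 1.30 FPKM (SD, n = 4) in control and 30.7 ± 6.32 FPKM (SD, n = 3) in GLOBAL. St8sia6, a sialyltransferase, was at 2.14, 1.86, 2.16 and 2.15 FPKM in control and at 6.66, 7.48 and 5.20 FPKM in GLOBAL. Ccl12, a chemokine for monocytes, had 179.6 ± 13.7 FPKM (SD, n = 4) in control and 307 ± 45.6 FPKM (SD, n = 3) in GLOBAL, the highest level among the non-chaperone genes that limma-voom called higher. AU020206, a gene of unnamed function, was at 48.5, 55.2, 56.5 and 58.5 FPKM in control and at 91.8, 90.3 and 86.5 FPKM in GLOBAL. It was called by neither tool (limma adjusted p = 0.14, limma-voom adjusted p = 0.0527), and its log2 fold change was 0.70 in GLOBAL and -0.01 in WM.

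Genes below control included Pde2a, a phosphodiesterase of cyclic nucleotides, at 23.3, 17.9, 10.2 and 19.1 FPKM in control and 6.12, 4.81 and 1.95 FPKM in GLOBAL. Every GLOBAL library lay under the lowest control (log2 fold change -1.85 ± 0.33 SE, limma adjusted p = 0.14, limma-voom adjusted p = 0.00848). Nbl1, a BMP antagonist, was at 5.35, 2.83, 8.41 and 10.3 FPKM in control and at 1.05, 0.317 and 0.366 FPKM in GLOBAL, and was called by neither tool (log2 fold change -2.21 ± 0.35 SE, limma adjusted p = 0.115, limma-voom adjusted p = 0.0881). Pecam1, the adhesion molecule CD31, had 11.1 ± 1.69 FPKM (SD, n = 4) in control and 4.66 ± 1.10 FPKM (SD, n = 3) in GLOBAL. Pecam1 is also a marker of endothelium. Of the 18 endothelial and mural genes tested, 13 had a lower estimate and 2, Pecam1 and Cldn5, were lower at an unadjusted p under 0.05, against 4.67% of all genes and a general downward lean of low genes. The list summed to 249 to 297 FPKM in control and 232 to 258 FPKM in GLOBAL, and its part in the result was not tested. Psat1, an enzyme of serine synthesis, had 15.3 ± 2.36 FPKM (SD, n = 4) in control and 7.66 ± 0.497 FPKM (SD, n = 3) in GLOBAL. Il27, a cytokine subunit, lay between 10.03 and 14.02 FPKM in control and between 4.71 and 7.32 FPKM in GLOBAL. Mmp28, a secreted metalloproteinase, lay between 5.88 and 9.53 FPKM in control and between 2.93 and 3.99 FPKM in GLOBAL. Dok2, an adaptor of receptor signalling, had 5.64 ± 1.39 FPKM (SD, n = 4) in control and 1.90 ± 0.388 FPKM (SD, n = 3) in GLOBAL. In these 4 genes every GLOBAL library lay below all controls, but neither tool called them, and in WM repopulating cells Psat1, Il27, Mmp28 and Dok2 had log2 fold changes of -0.37, -0.21, -0.75 and -0.02. Vmn1r158, of the large vomeronasal receptor family, whose near-identical copies make its reads uncertain, had 8.04 ± 2.50 FPKM (SD, n = 4) in control and 3.003 ± 0.203 FPKM (SD, n = 3) in GLOBAL, without overlap, and was called by neither tool. Sema6d, Myo18b, Arhgef25, Tmem44, Gpr165, Actn1 and Txndc2 were the other genes that limma-voom called lower, and all 7 had means under 10 FPKM in GLOBAL.

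Among the lists with a positive median, the heat shock chaperones had the highest, 0.89. These proteins fold other proteins and are induced by heat and other stress through the factor Hsf1. Of the 17 tested, 16 had a higher estimate in GLOBAL, and 13 had an unadjusted p under 0.05 against 4.37% of all genes. In the same 13 the groups did not overlap, against 5.83% of all genes in that direction. None had an adjusted p under 0.05 in limma, and 4 did in limma-voom (Hsph1, Hspe1, Hsp90aa1 and Dnajb1).

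Hspa1a, which encodes the inducible HSP70, was at 225, 1298, 1328 and 1416 FPKM in control libraries and at 2762, 3107 and 3464 FPKM in GLOBAL libraries. Control library 1 was far under the other controls and all GLOBAL libraries were above all controls. Hspa1b, its near-identical copy, was likewise lowest in control library 1, with 160, 839, 828 and 907 FPKM in control and 1849, 1961 and 2220 FPKM in GLOBAL. Hspa1l, a neighbouring HSP70 gene outside the list that limma-voom called (adjusted p = 0.00482), was at 25.6, 84.5, 72.7 and 45.6 FPKM in control and at 233, 188 and 203 FPKM in GLOBAL. Hspa1a, Hspa1b and Hspa1l lie side by side on chromosome 17 (GRCm38 34969359 to 34972156, 34956429 to 34959238 and 34972703 to 34979228), and reads that fit more than 1 of them make their separate values uncertain. Hsph1, the HSP110 that recharges HSP70, was at 6.35, 17.2, 14.5 and 11.96 FPKM in control and at 31.1, 35.4 and 41.9 FPKM in GLOBAL. Hsp90aa1, the inducible HSP90, was at 152, 275, 269 and 259 FPKM in control and at 418, 402 and 531 FPKM in GLOBAL. Dnajb1, the HSP40 partner of HSP70, lay between 79.4 and 191 FPKM in control and between 273 and 332 FPKM in GLOBAL. Hspb1, a small heat shock protein, had 47.3 ± 24.1 FPKM (SD, n = 4) in control and 119.8 ± 32.6 FPKM (SD, n = 3) in GLOBAL.

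Control library 1 had the lowest value of the 7 libraries in each of these chaperones. Without it, 13 of 17 were still higher at an unadjusted p under 0.05, with a median of 0.72, and without control libraries 1 and 2 the count was 14 with a median of 0.66. Hsf1 itself had an estimate of 0.25 with overlapping groups. Cryab, a small heat shock protein of glia, was the member with a lower estimate, and it too had an unadjusted p under 0.05 (log2 fold change -0.67), at 1.74 to 2.30 FPKM in control and 0.471 to 2.18 FPKM in GLOBAL.

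Hspe1 and Hspd1, the mitochondrial chaperonin pair HSP10 and HSP60, are transcribed in opposite directions from a shared start region. Hspe1 was at 29.9, 45.4, 44.0 and 38.9 FPKM in control and at 79.8, 83.4 and 102 FPKM in GLOBAL (log2 fold change 1.149 ± 0.17 SE, limma adjusted p = 0.0816, limma-voom adjusted p = 0.0136). Hspd1 was at 20.3, 33.8, 32.1 and 26.2 FPKM in control and at 40.4, 46.9 and 50.6 FPKM in GLOBAL. Both were higher in every GLOBAL library than in any control. Their gene models overlap by 96 bases, where reads cannot be assigned without strand. The RefSeq promoters (GRCm38.p6) of the heat shock list were searched, over the 250 bases before each start, for the heat shock element written as GAANNTTCNNGAA or TTCNNGAANNTTC, each the reverse complement of the other. Of 12 chaperone genes with a promoter in the table, Hspe1 and Hspd1 held it, against 0.482% of the 12457 tested genes with a promoter. In both genes it is the same stretch read from opposite strands, at chr1:55088035-55088100. It is printed because this is the stretch that both members of the pair share, 5′ to 3′ on the strand of each gene, with the bases covered by matches in capitals.

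Hspe1: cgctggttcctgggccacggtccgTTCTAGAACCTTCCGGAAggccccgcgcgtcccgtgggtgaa
Hspd1: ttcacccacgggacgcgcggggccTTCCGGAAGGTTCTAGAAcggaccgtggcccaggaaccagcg

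The matches begin 89 bases before the start of Hspe1 and 144 bases before the inner of 2 starts listed for Hspd1, and each stretch holds 2 overlapping matches. Counted from the outer start of Hspd1, with which the overlap of the gene models was measured, the stretch lies within the Hspd1 gene. A shorter form with 2 units in place of 3 (GAANNTTC or TTCNNGAA) was found in 8 of the 12 promoters, including those of Hspa1a, Hspa1b, Hsph1 and Hspb1, against 13.1% of tested genes. A match is a description of the letters in this window only.

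Snord14d, a small nucleolar RNA within the Hspa8 gene on chromosome 9 (GRCm38 40803995 to 40804081), was at 6.77, 5.21, 13.1 and 4.73 FPKM in control and at 29.7, 21.4 and 25.9 FPKM in GLOBAL. Hspa8, the constitutive HSC70, was at 524, 768, 494 and 715 FPKM in control and at 932, 888 and 934 FPKM in GLOBAL. Reads of the snoRNA and of its host gene cannot be told apart here.

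**Figure D3:**
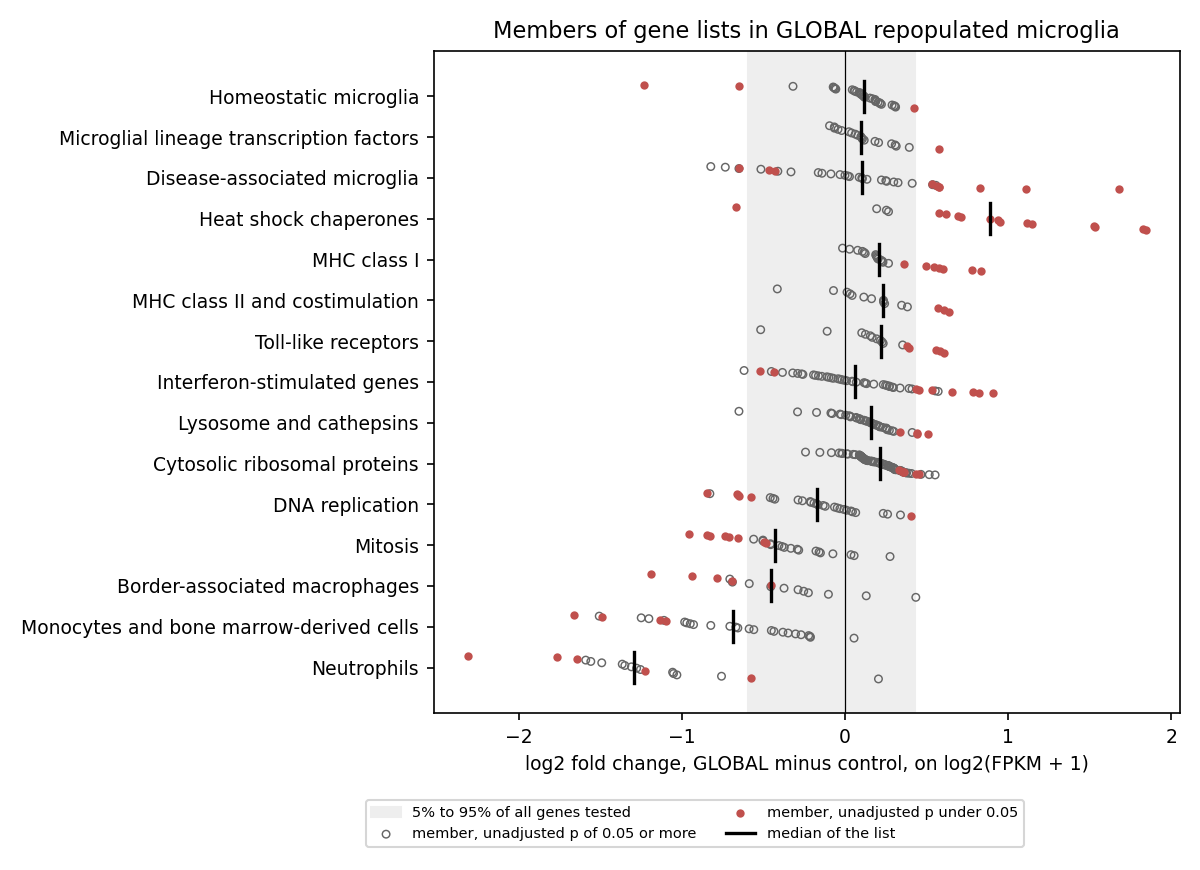
Log2 fold change (GLOBAL minus control, on log2(FPKM + 1)) of the tested members of 15 gene lists, with filled points for members at an unadjusted p under 0.05, black bars for list medians and a grey band from the 5% to the 95% quantile of all genes. The heat shock chaperones reach furthest to the right (median 0.89), and the neutrophil list furthest to the left (median -1.29).

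Of the 35 disease-associated microglia genes tested, 7 were higher and 3 lower at an unadjusted p under 0.05, where 4.37% of all genes were higher and 4.67% lower, with a median log2 fold change of 0.10. Beside Axl, the higher members were Cd34, Ccrl2, Ly9, Fth1, B2m and Itgax. Cd34, a sialomucin of progenitors, had 60.8 ± 9.40 FPKM (SD, n = 4) in control and 109 ± 16.8 FPKM (SD, n = 3) in GLOBAL, and Ly9, a SLAM family receptor, lay between 5.55 and 11.1 FPKM in control and between 12.96 and 22.3 FPKM in GLOBAL. The lower members were Csf1, a ligand of the CSF1 receptor, Lpl, the lipoprotein lipase, and Lilrb4a, an inhibitory receptor. Apoe, which carries lipids and is a core gene of this state, was at 595, 555, 558 and 670 FPKM in control and at 463, 772 and 603 FPKM in GLOBAL, with an estimate of 0.02. Clec7a, the receptor dectin-1, overlapped between the groups at 6.33 to 10.6 FPKM and 7.46 to 17.7 FPKM. The lower side depended on the control libraries. Without control library 4, 9 members were higher and 7 lower at an unadjusted p under 0.05, beside 1281 and 1063 of all 16330 genes. Without control libraries 1 and 2 there were 8 higher and 0 lower, beside 665 and 498 of all 15196 genes.

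For MHC class I, which presents peptides to CD8 T cells, 21 of 22 estimates were higher, with 7 at an unadjusted p under 0.05, against 4.37% of all genes, 0 lower and a median of 0.21. Without control library 4 there were 10 (1281 of all 16330 genes), and without control libraries 1 and 2 there were 5 (665 of all 15196). H2-K1, a classical class I heavy chain, was at 409, 383, 412 and 439 FPKM in control and at 546, 613 and 639 FPKM in GLOBAL. B2m, the light chain, was at 1992, 1977, 2169 and 1801 FPKM in control and at 2382, 3191 and 3407 FPKM in GLOBAL. The groups did not overlap for either gene. The peptide transporter Tap1 and the immunoproteasome subunits Psmb8 and Psmb9 overlapped between groups, with estimates of 0.20, 0.03 and -0.02. H2-K1, H2-D1 and the H2-Q genes are close copies, so reads can be split among them.

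Toll-like receptors and their partners had 14 of 16 estimates higher, with 5 at an unadjusted p under 0.05 and a median of 0.22. Of all genes tested, 4.37% were higher and 4.67% lower at this level, which is the background for the immune lists that follow. Tlr2, the receptor for bacterial lipoproteins, lay between 38.5 and 59.9 FPKM in control and between 68.4 and 82.4 FPKM in GLOBAL. Of the 14 purinergic receptors tested, 5 were higher and 1 lower at that level. Adora3, an adenosine receptor, lay between 42.0 and 47.1 FPKM in control and between 61.0 and 68.1 FPKM in GLOBAL. In the MHC class II list of 15 genes, 3 were higher, and they were Icosl, H2-DMa and H2-Oa, whereas Cd74, the invariant chain, overlapped with an estimate of 0.12. Interferon-stimulated genes had a median of 0.06, with 7 higher and 2 lower of 48. Irf7, a factor of the interferon response, was among the lower, at 8.67 to 10.9 FPKM in GLOBAL and 11.6 to 18.4 FPKM in control.

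Lysosome and cathepsin genes, with which microglia degrade what they take up, had 35 of 42 estimates higher, 4 of them at an unadjusted p under 0.05 (Ctsh, Ctsc, Asah1 and Ctss), and a median of 0.16. Of all genes 51.1% were higher by sign and 4.37% at that level, and among genes between 20 and 100 FPKM 231 were higher and 46 lower. Cytosolic ribosomal protein genes had 75 of 81 estimates higher and 6 at that level, against the same 4.37%, with a median of 0.22. This count was 32 without control library 1 and 36 without control libraries 1 and 2. The 18 complement genes tested had 2 higher and 2 lower. C1qa, C1qb and C1qc, the subunits that start the classical pathway, had estimates of 0.04, -0.06 and 0.06, and were highest in control library 4. Immediate early genes, which respond within minutes to cell handling, had 3 higher and 1 lower of 29, with a median of 0.12. Their summed level was 20764 FPKM in control library 4, above every other library.

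Cell cycle genes were low in both groups and lower in GLOBAL by estimate. Of 26 mitosis genes, 23 had a lower estimate and 8 were lower at an unadjusted p under 0.05, against 4.67% of all genes, with a median of -0.43. Mki67, a marker of cycling cells, was at 2.90, 3.06, 2.15 and 1.70 FPKM in control and at 1.69, 1.40 and 1.18 FPKM in GLOBAL. Top2a, the topoisomerase that untangles chromosomes, was at 3.45, 2.61, 1.38 and 1.14 FPKM in control and at 0.354, 1.07 and 0.680 FPKM in GLOBAL. Both were highest in control libraries 1 and 2, the libraries with most neutrophil RNA, and these are levels at which genes of all kinds leaned down. Without both libraries the count was 2 of 21 tested, with a median of -0.16, and with the neutrophil level as a covariate 2 of 26. Leaving out 1 library at a time, from either group, gave 3 to 9. DNA replication genes had 22 of 30 lower, 5 at an unadjusted p under 0.05, against the same 4.67%. Without control libraries 1 and 2 it was 1 of 28, and with the neutrophil level as a covariate 15 estimates were higher and 15 lower, with 1 lower at that level. Of the 8 replication genes with a higher estimate in the main fit, 1 was higher at that level, and with the covariate 0 were. Pcna, the sliding clamp, was the member with every GLOBAL library above all controls, at 36.3 to 55.1 FPKM in control and 56.7 to 71.9 FPKM in GLOBAL.

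Transcripts of other myeloid cells were lower in GLOBAL by estimate, and these transcripts were highest in control libraries 1 and 2. Of 28 monocyte genes, 27 had a lower estimate and 4 were lower at an unadjusted p under 0.05, and of 18 neutrophil genes 17 and 5, against 4.67% of all genes. The summed neutrophil level was 25128, 15190, 2903 and 2558 FPKM in the control libraries and 5187, 3171 and 1558 FPKM in the GLOBAL libraries, so that the groups overlapped. Ly6c2, a surface protein of blood monocytes, was at 359, 219, 159 and 68.4 FPKM in control and at 133, 98.05 and 30.6 FPKM in GLOBAL. Without control libraries 1 and 2, 1 monocyte gene and 0 neutrophil genes were lower at that level (medians -0.18 and -0.08). Without control library 4, 19 monocyte genes and 13 neutrophil genes were lower at that level, beside 1063 of all 16330 genes. Leaving out 1 library at a time, from either group, gave 0 to 19 monocyte genes and 1 to 13 neutrophil genes. The study states a sort for CD45int cells, and the source of these transcripts was not tested.

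Border-associated macrophages sit in the meninges and around vessels. Of their 16 genes, 14 had a lower estimate and 5 were lower at an unadjusted p under 0.05, against 4.67% of all genes, with a median of -0.46. Stab1, a scavenger receptor and the member with the highest FPKM, was at 101, 102, 91.2 and 107 FPKM in control and at 79.96, 68.6 and 70.3 FPKM in GLOBAL, without overlap (log2 fold change -0.46 ± 0.13 SE, limma adjusted p = 0.339). At its level genes leaned up in general, whereas genes under 5 FPKM, the mean level of Mrc1 and Ms4a7, leaned down. Mrc1, the mannose receptor that defines them, was at 5.26, 4.35, 4.14 and 2.79 FPKM in control and at 2.50, 1.89 and 2.001 FPKM in GLOBAL, and Cbr2 and Ms4a7 were likewise lower in every GLOBAL library. The summed level of the list was 189 to 223 FPKM in control and 132 to 164 FPKM in GLOBAL, without overlap. Without control libraries 1 and 2, 4 genes were still lower at that level, of 14 tested.

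**Figure D4:**
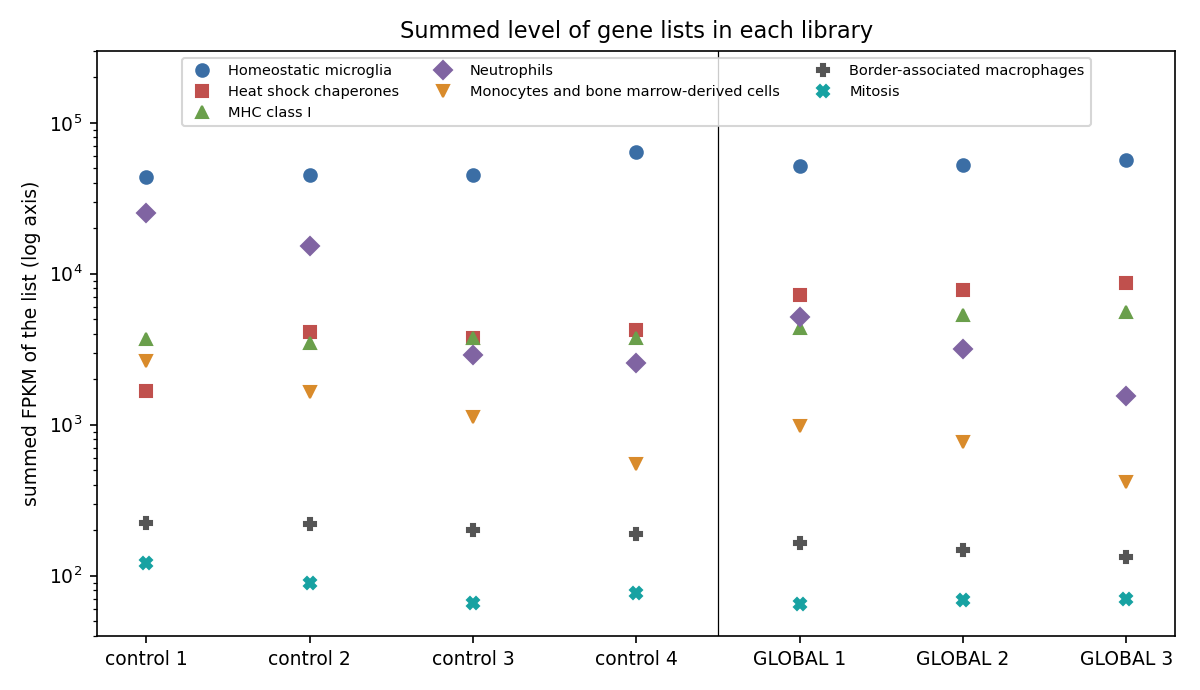
Summed FPKM of 7 gene lists in each library on a log axis, with control libraries left of the line and GLOBAL libraries right of it. The neutrophil sum spans 2558 to 25128 FPKM in control and 1558 to 5187 FPKM in GLOBAL, whereas the heat shock sum is 1659 to 4263 FPKM in control and 7244 to 8730 FPKM in GLOBAL.

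The weak trends of GLOBAL repopulated microglia were set beside WM repopulating cells, which differ in the length of treatment and came from other mice with their own controls. In WM repopulating cells at 0 hr, 99 of 12684 genes were DEGs (0.781%, adjusted p under 0.05 and log2 fold change over 1 in size), and 58 without control library 2 of that table. Of these, 95 were tested in GLOBAL, and 72 had the same direction there. At an unadjusted p under 0.05, 47 differed in the same direction in GLOBAL and 1 in the opposite direction. Among the 11995 other genes tested in both tables, 5.30% had an unadjusted p under 0.05 in GLOBAL with the direction of WM, and 53.3% had the same direction. The 2 tables were normalized separately, so the difference between GLOBAL and WM was not tested.

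All 72 genes with the same direction had a smaller estimate in GLOBAL than in WM. The choice of genes by a large change in WM fixes part of that order. The 57 genes higher in WM had a median log2 fold change of 1.41 there and 0.40 in GLOBAL, where 42 were higher and 25 at an unadjusted p under 0.05. The 38 genes lower in WM had medians of -1.44 and -0.60, and 30 were lower in GLOBAL, 22 at that level. For 21 of the 72 the estimate in GLOBAL was over 1 in size, and for 39 of the 95 the interval in GLOBAL lay within -1 and 1.

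Axl was at 4.95, 5.54 and 5.58 FPKM in the control libraries of the WM table and at 35.1, 27.5, 28.9 and 30.8 FPKM in WM repopulating cells. Its log2 fold change was 2.31 in WM (limma adjusted p = 0.00018) beside 1.68 in GLOBAL. Crybb1 was at 485, 568 and 517 FPKM in those controls and at 184, 189, 180 and 197 FPKM in WM repopulating cells, with log2 fold changes of -1.47 in WM (limma adjusted p = 0.03) and -1.24 in GLOBAL. St8sia6 had 2.12 and 1.26, Hcar2 2.07 and 1.32, Scimp, an adaptor of Toll-like receptor signalling, 2.06 and 1.56, and Pdcd1, the checkpoint receptor PD-1, 2.23 and 1.27. On the lower side, Nbl1 had log2 fold changes of -2.36 in WM and -2.21 in GLOBAL, Pde2a -1.97 and -1.85, and Cd79b, a signalling chain of the B cell receptor, -2.001 and -1.02.

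Other WM DEGs had smaller estimates in GLOBAL. Cebpb, a factor of inflammatory myeloid cells, had log2 fold changes of 1.80 in WM and 0.06 in GLOBAL, Lat, an adaptor of T cell receptor signalling, 1.63 and 0.19, and Kcnn4, a potassium channel, 1.54 and 0.03. Khdrbs3, an RNA-binding protein, had -2.32 and -0.48, with overlapping groups in GLOBAL. Bcl2a1d, a survival gene with near-identical copies, had 2.25 and 0.50, and was higher in GLOBAL at an unadjusted p under 0.05, with overlapping groups. Ccdc36 was the gene that differed in the opposite direction, with -1.149 in WM and 0.55 in GLOBAL, at low levels of 0.924 to 1.79 FPKM in control and 1.81 to 3.21 FPKM in GLOBAL.

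**Figure D5:**
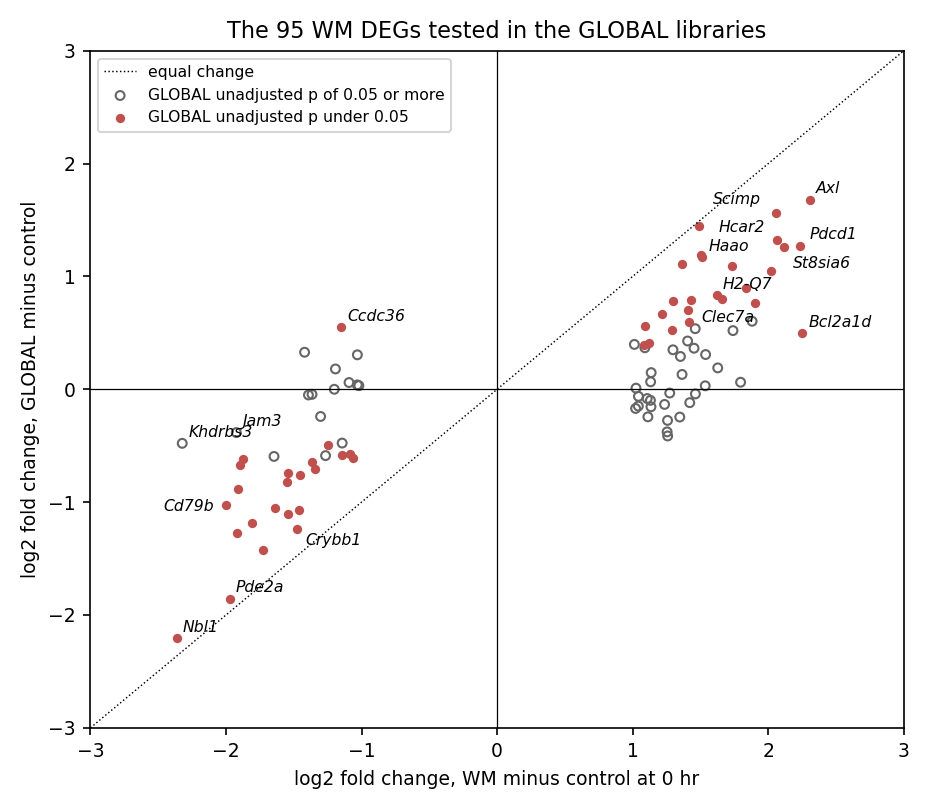
Log2 fold change of the 95 WM DEGs in WM repopulating cells at 0 hr (x axis) and in GLOBAL repopulated microglia (y axis), each against its own controls, with filled points for genes at an unadjusted p under 0.05 in GLOBAL. The 72 genes with the same direction lie in the lower left and upper right, all closer to 0 on the GLOBAL axis than the dotted line of equal change.

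Lists also differed between the tables in their medians, without a test. The heat shock chaperones had medians of 0.89 in GLOBAL and 0.44 in WM, where 7 of 18 were higher at an unadjusted p under 0.05, a level that 11.9% of all genes reached in either direction in WM. In the WM table Hspa1a was at 204, 404 and 313 FPKM in controls and at 725, 950, 736 and 751 FPKM in WM repopulating cells (log2 fold change 1.41, limma adjusted p = 0.665). Border-associated macrophage genes had medians of -0.46 and -0.76, and MHC class I genes 0.21 and 0.32. The mitosis list had -0.43 in GLOBAL and 0.23 in WM, and the monocyte list -0.69 and 0.36. Without control libraries 1 and 2 the GLOBAL medians of these lists were -0.16 and -0.18. Of the 26 genes that limma-voom called in GLOBAL, 25 were tested in WM, 24 had the same direction, and 13 of these had an adjusted p under 0.05 there. Of all genes tested in both experiments, 53.5% had the same direction, and 154 of the 12684 genes tested in WM had an adjusted p under 0.05.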

How the data were processed

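The libraries analysed are those of the GLOBAL experiment and, beside them, the sorted-cell table of the WM experiment. The authors aligned reads to mm10 with STAR, counted them per gene with featureCounts and deposited FPKM values on a scaled library size; edgeR and limma are named in the notes of the submitters. The methods give Smart-seq2 libraries, whereas the extraction protocol in the labels gives microdissected tissue and libraries from a sequencing company. Every value in both tables is a whole multiple of 1 read (100% of values, within 0.01 read), which gave the reads per library. A gene was tested if 3 or more libraries reached an FPKM of 1. The test was limma (version 3.58.1, R 4.3.3) on log2(FPKM + 1) values, with a variance trend and Benjamini-Hochberg adjustment, 2-sided. All p-values not called exact are from limma. The WM contrast shared the spread of all 6 groups of its table. On this scale the fold changes of low genes are understated. Limma-voom used the recovered reads. The steps were tested on simulated data. Named genes were, in each direction, the 12 with the smallest p among those without overlap and with a group mean of at least 5 FPKM, the homeostatic, transcription factor and disease-associated lists, leading members of other lists, and the largest WM DEGs, with list members given mostly by counts; others, among them the remaining limma-voom calls, Tap1, Psmb8, Psmb9, Ccdc36, Cebpb, Lat, Kcnn4, Trav3-3 and Igfbp4, were named after their values were seen. The members and lists were chosen with earlier results of these data known. The 15 columns of the SVZ table were not used, and 0 columns were left unassigned. In the labels, same-numbered libraries share only a number. Of 44 lists, those named in the text are given. No library pair held identical values. Figures were drawn with matplotlib 3.10.9.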

Additional observations from a re-analysis of the deposited data

Results flagged for a closer look

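Among the 4 control libraries, some values stood apart from the other 3 by Dixon's criterion, which chance meets in about 1 in 20 groups. Control library 4 had the highest summed level of the homeostatic genes (63799 FPKM), of the lineage transcription factors (5894 FPKM) and of the complement genes (14560 FPKM). Control library 2 was apart for Gpr165 (18.02 FPKM), for Vmn1r158 (11.8 FPKM), a pheromone receptor gene that shares reads with close copies, and for St8sia6, where it was lowest (1.86 FPKM) and the direction of the difference from GLOBAL did not rest on it. For 2 named genes, all GLOBAL libraries lay on one side of their controls and all WM libraries on the other side of theirs. Among the named genes tested in both experiments, 47 lay above all controls in both and 14 below all controls in both. Psmd1, a proteasome subunit, had log2 fold changes of 0.51 in GLOBAL and -0.35 in WM, and Mef2c, a transcription factor of microglia, 0.11 and -0.16. These differences between the experiments were not tested.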

How the results depend on the processing

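The DEG count of 0 held under both other pseudocounts, without a filter, at a mean of at least 5 FPKM, under quantile normalization and median centring, without the variance trend, with robust variance, and, added after seeing the data, without control libraries 1 and 2, on thinned reads and with the neutrophil level as a covariate. It was 7 with protein coding and lncRNA genes only (Hcar2, Tnfsf13b, Axl, Vcam1, Haao, Txndc2 and Hspe1), 1 with array weights (Hcar2), 26 with limma-voom and 79 with limma-voom and library weights, both added after seeing the data. Leaving out 1 library gave 0 to 1: Trav3-3 without GLOBAL library 2, Snord14d without control library 3 and Igfbp4 without control library 4. With the replicate number as a block, which also leaves out control library 4 since it has no partner, it was 55, of which 11 were also called by limma-voom and 40 were lower, among them the neutrophil genes Ly6g, S100a9, Camp and Ltf. Same-numbered libraries correlated in their deviations with r of 0.164, 0.0536 and 0.0943, each best with its own number. These values are small, the labels state no pairing, and a pairing was not tested. The summed neutrophil level also fell with the number, at 25128, 15190 and 2903 FPKM in control libraries 1 to 3 and 5187, 3171 and 1558 FPKM in GLOBAL.

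The 1504 genes at an unadjusted p under 0.05 became 836 at a mean of at least 5 FPKM, 2470 with the replicate block and without control library 4 (2344 without that library alone), 2708 with limma-voom and library weights, and 882 to 2344 when 1 library was left out, the lowest without GLOBAL library 3 and the highest without control library 4. At a mean of at least 5 FPKM, where fewer genes were tested, 7943 intervals lay within -1 and 1, the WM DEGs were 49, and 39 and 31 of the WM DEGs had the same direction in GLOBAL and the same direction with an unadjusted p under 0.05. Without the size limit on WM DEGs, 114 had the same direction. The WM DEG count was 58 to 78 when 1 library was left out, lowest without control library 2 of that table. The distance between groups minus that within groups was -1.63 to 7.497 when 1 library was left out. The heat shock count stayed between 12 and 15 of 17, and the MHC class I count between 5 and 10 of 22. The monocyte count ran from 0 to 22, the neutrophil count from 0 to 16 and the mitosis count from 0 to 10, and the causes were not tested. None of the 30 leading genes changed direction in any of 682 recomputed values. Most of them were chosen because their groups did not overlap, so leaving out a library could not reverse them. The count is therefore no test of their direction.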
